A study of Zea mays with 12 samples.

Results

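The genes described here were even between mesophyll (M) and bundle sheath (BS) cells of the maize leaf at the sink-source transition and M-enriched at both later stages. They were chosen on the deposited FPKM values (fragments mapped to a gene, scaled by transcript length and by the depth of the library), with the means of the 2 libraries of each group. At the sink-source transition (SST) the M and BS means had to be at least 1 FPKM and within 1.5-fold of each other. In the maturing and in the mature section the M mean had to be at least 5 FPKM and at least 2 times the BS mean, with both M values above both BS values. The rule also set aside 3 genes, which did not meet these limits in any case. It left 74 genes, of 110005 gene models in the table and 47572 with a value above 0 in any library. Of the 8494 genes that were even at SST, 389 met the M limits at maturing and 368 at mature. With M and BS exchanged, the same rule chose 178 genes.

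The samples were 12 RNA-seq libraries from the third leaf of maize plants 9 days old, labelled with the inbred Mo17 and no treatment. M and BS cells were cut out of fixed sections by laser microdissection, a laser-based capture of single cell types from tissue. The groups were M and BS cells at each of 3 stages, with 2 libraries a group. SST was leaf section 4, maturing section 9 and mature section 14. The sections were matched to positions -1, 4 and 9 cm from the end of the transition because both run in the same order. Each library held RNA of many captured cells, amplified by 1 round, and the labels do not say whether the 2 libraries of a group came from separate plants. The p-values below therefore measure the spread between libraries, which may be technical. In bulk captures, fewer cells of a type and less RNA per cell cannot be told apart.

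A maize leaf grows from its base, so that position along the blade follows age, and the sink-source transition is where a blade turns from importing to exporting sugar. In the grown leaf M cells take up CO2 with phosphoenolpyruvate (PEP) carboxylase and pass C4 acids to the BS cells, which ring the veins, release the CO2 again and refix it with Rubisco. M cells of maize are also known as the place of nitrate reduction. The shikimate pathway starts from PEP and erythrose 4-phosphate and leads to the aromatic amino acids.

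Summed FPKM ranged from 1009183 to 1551571 over the libraries. Depth, as estimated from the spacing of the lowest values, was 2.31 to 2.36 times that of the first SST BS library in the 4 maturing libraries, 0.874 to 1.21 times in the mature libraries, and 0.645 and 0.705 times in the SST M libraries. Known markers matched the cell labels. PEP carboxylase, NADP-malate dehydrogenase, carbonic anhydrase, PPDK and GLK1 were higher in M at every stage, with a log2 M/BS of 1.46 to 2.16 at SST, 1.29 to 2.42 at maturing and 1.20 to 1.87 at mature. NADP-malic enzyme, PEPCK, Rubisco small subunit, Rubisco activase, G2 and SCR were lower in M at every stage, from -3.01 to -0.41 at SST, from -5.36 to -0.78 at maturing and from -3.94 to -1.02 at mature. The markers were thus cell-biased at the stage where the 74 genes were even. M captures held more of 7 annotated genes of very-long-chain fatty acid and wax synthesis, listed as markers of the epidermis, than BS captures did. Their summed FPKM was 33.6 and 28.8 in M and 9.67 and 9.64 in BS at SST, 24.9 and 24.6 in M and 3.05 and 4.51 in BS at maturing, and 21.8 and 16.9 in M and 7.61 and 2.88 in BS at mature, with the M mean higher for 7 of 7 genes at each stage. These genes differed between M and BS at SST as well, where the 74 were even, and their part in the results was not tested. Of 6 annotated genes of vascular tissue the M mean was higher for 1 at SST, 1 at maturing and 0 at mature, and the guard cell marker was lower in M at each stage.

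The size of the acquired bias is a description, since the rule chose the genes on it. The rule also required M above BS without overlap at both later stages, in every gene described below. The log2 of the M mean over the BS mean had a median of 0.24 at SST (from -0.55 to 0.58), 1.42 at maturing (from 1.00 to 4.17) and 1.40 at mature (from 1.01 to 3.63, in the 73 genes with a BS mean above 0). M was at least 4-fold higher for 12 genes at maturing and for 17 at mature. The ratio was larger at mature than at maturing for 37 genes and smaller for 36. Within the 1.5-fold allowed at SST, the M mean was above the BS mean for 54 genes and below it for 20. Both SST M values were above both SST BS values for 29 genes, both were below for 4, and the libraries overlapped for 41. Even thus means within 1.5-fold, and not without a difference. In the 29 genes, the later bias widened a smaller one of the same direction. No such counts are given for the other genes even at SST. Whether the lean to M at SST is particular to the genes chosen was therefore not tested. The genes were mostly of moderate abundance, with a median M mean over maturing and mature of 17.6 FPKM (5.41 to 522). The M mean was above 100 FPKM for 8 genes and below 20 FPKM for 40. The paper states that the RNA amplification biased reads to the poly(A) ends of transcripts. Levels in FPKM, which are scaled by transcript length, may therefore compare poorly between genes.

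**Figure D1:**
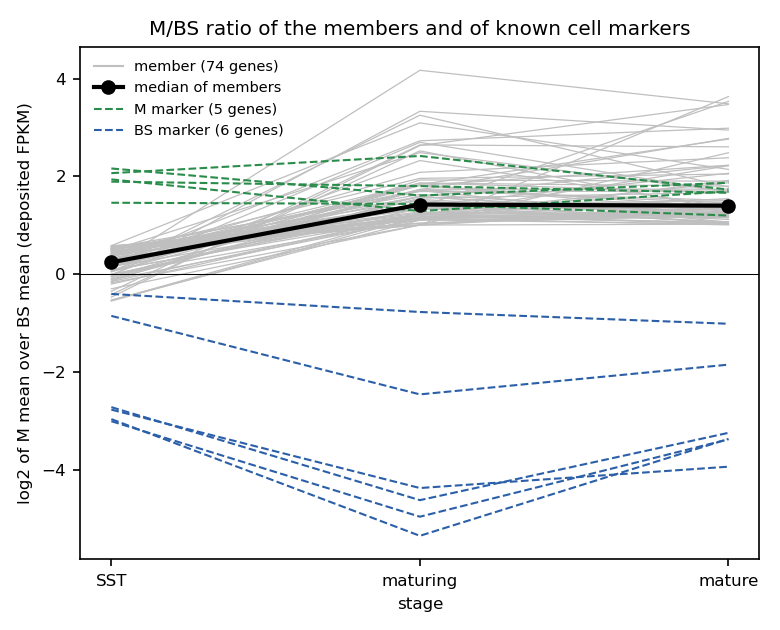
Log2 of the M mean over the BS mean (deposited FPKM, y axis) at the 3 stages (x axis). Grey lines are the 74 genes (73 at mature), the black line is their median (0.24, 1.42 and 1.40), and dashed lines are 5 M markers and 6 BS markers, which were on separate sides of 0 at SST already.

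Several limits passed close to other genes. The SST fold was 1.498 in GRMZM2G365160, just inside, and 1.504 in GRMZM2G047223, just outside, and 440 genes missed the rule by this limit alone. At maturing, the M/BS fold was 2.0003 in GRMZM2G486480 and 1.997 in GRMZM2G055165, and at mature it was 2.011 in GRMZM2G011483 and 1.976 in AC198418.3_FG005. These folds alone left out 114 and 122 genes. The M mean at maturing was 5.46 FPKM in GRMZM2G005339 and 4.91 FPKM in GRMZM5G866121, and at mature it was 5.15 FPKM in GRMZM2G153924 and 4.83 FPKM in GRMZM2G158655. The SST level was 1.31 FPKM in GRMZM6G816863, inside the limit, and 0.83 FPKM in GRMZM2G025175, outside it.

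Stage changes within a cell type were tested with limma after scaling the libraries to a common upper quartile, and a gene was called at an adjusted p below 0.01. All 74 genes passed the filter on low values. A change is given as the fitted log2 of the later over the earlier stage ± its SE. The rule fixed the difference between the M change and the BS change that follow SST. It also fixed a higher M mean at the later stages for genes with an SST M mean below 5 FPKM, which were 11 of the 74. Of the 8 genes called higher in M below, 3 were among these 11 (xet1, vip3 and GRMZM2G094941), so that the rule fixed their direction, and 5 were not. In M cells, maturing against SST, 8 of the 74 genes were called higher and 3 lower, where 4.48% of the 32548 genes tested were called higher and 3.87% lower. The median fitted log2 change was 0.52, against 0.21 for the 8420 other genes even at SST, of which 7.70% were called higher and 5.34% lower. In BS cells, 2 genes were called higher and 24 lower, which is 32.4% of the 74, while 6.1% of all genes tested were called higher and 5.01% lower. The median BS change was -0.88, against 0.10 for the other even genes, of which 8.9% were called higher and 7.93% lower. The rule required an M mean high relative to BS at maturing, which favours genes that rose in M as well as genes that fell in BS. The M rises, also those of the 5 genes whose direction was not fixed, are therefore not independent of how the genes were chosen. The same holds for the excess of BS falls. Upper quartile scaling put the median change of the 13595 genes above that quartile at 0.20 in M and 0.24 in BS, against 0 and 0.13 in the values as deposited, and the changes here are to be read against that shift.

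By the sign of the fitted changes from SST to maturing, 32 genes were higher in M and lower in BS, 18 were higher in both cell types and 24 were lower in both. No gene was called higher in M and lower in BS. The calls were lower in BS with no call in M for 21 genes, lower in both for 3, higher in M with no call in BS for 6, and higher in both for 2, and 42 genes had no call in either. The BS mean was highest at SST for 53 genes, at maturing for 11 and at mature for 10. The M mean was highest at SST for 28, at maturing for 29 and at mature for 17. The BS count of 24 was 11 to 14 without either SST BS library, either maturing BS library or either maturing M library. The count of 8 was 3 to 5 without either SST BS or maturing M library or the second SST M library, and the count of 3 was 1 without any SST, maturing M or mature M library. The BS count of 2 was 1 without the second SST BS or the first maturing BS library. Fitted on the 4 libraries of the contrast alone, the counts were 0 higher and 1 lower in M, and 0 higher and 2 lower in BS.

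**Figure D2:**
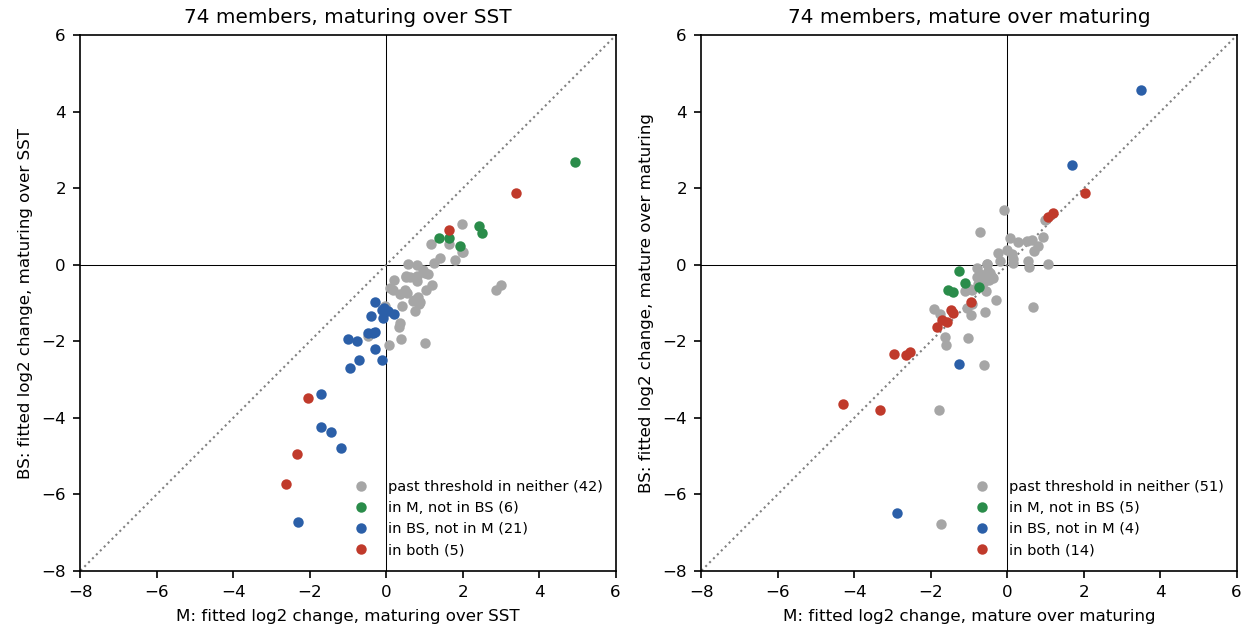
Fitted log2 change in M (x axis) and BS (y axis) of the 74 genes, from SST to maturing on the left and from maturing to mature on the right. Colours mark the genes past an adjusted p of 0.01 (limma), and the dotted line marks equal changes. On the left all points are below the line, which the rule fixes, and 24 genes are lower in both cell types. On the right most points lie near the line.

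**Figure D3:**
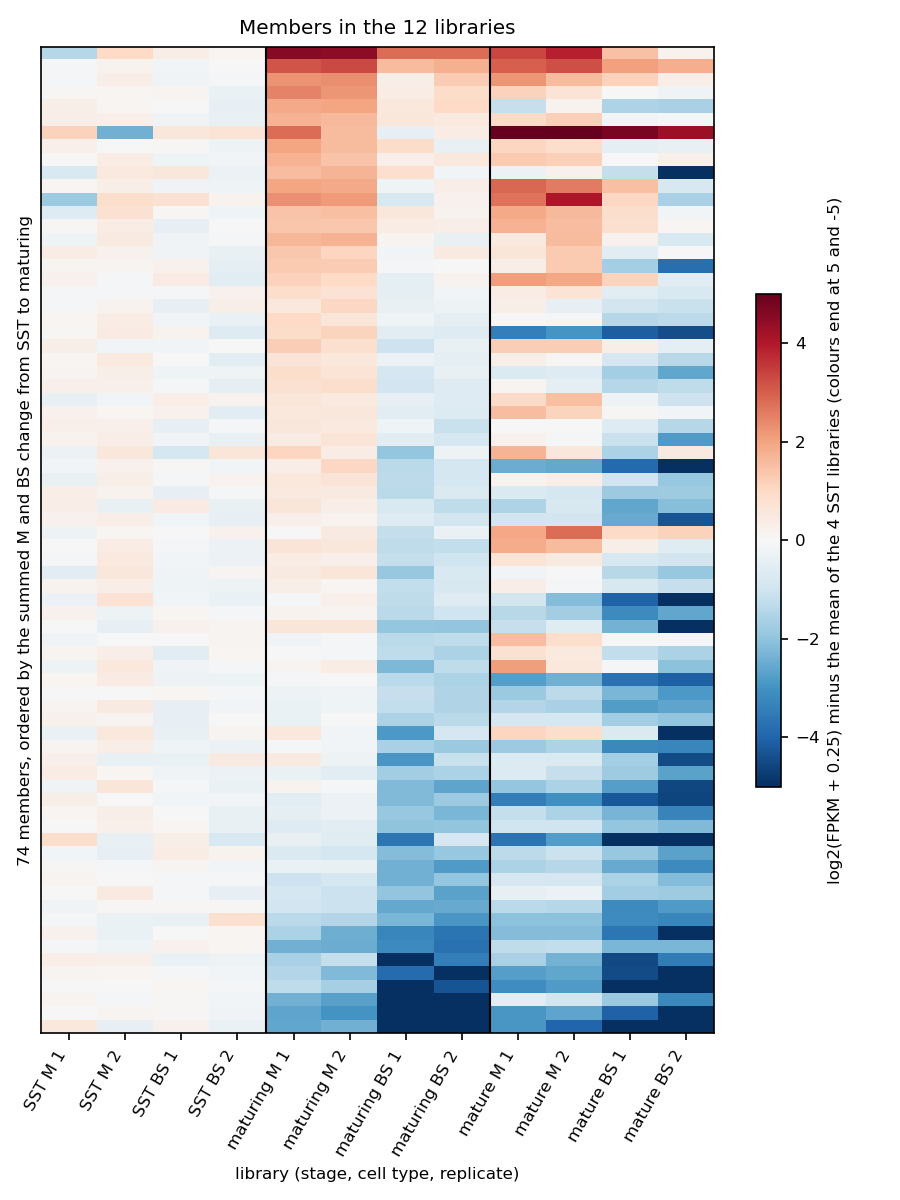
Log2(FPKM + 0.25) of the 74 genes (rows) in each of the 12 libraries (columns), as the difference from the mean of the 4 SST libraries, in colours that end at 5 and -5. The BS libraries at maturing and mature are blue for most genes, whereas the M libraries range from red at the top to blue at the bottom.

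A gene name or an annotation was at hand for 18 of the 74 genes. The RefSeq table held 41 of them (55.4%), against 64.3% of the other genes even at SST, and 33 were not in it. Annotated genes of amino acid synthesis numbered 4: 3 of aromatic and 1 of branched chain amino acid synthesis. They were 4 of 171 genes tested on the list of nitrogen, amino acid and sulfur metabolism. The nitrate reductase gene NAR, described below, was not matched to that list. The cell wall list held 3 of 145 and the lipid metabolism list 2 of 181. Over all features, the 74 were among 32548 genes tested, and 12 of them were among the 1465 genes with annotation at hand. With counts this small, the shares were not compared. The annotation came from the part at hand of a list of BS/M-differential genes that the study chose on these samples, so that membership of these lists is no independent evidence of a direction.

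The first step of the shikimate pathway, DAHP synthase, which joins PEP and erythrose 4-phosphate, had 2 genes among the 74. GRMZM2G117707, annotated as the DHS2 form, was at 41.3 and 52.8 FPKM in M and 47.7 and 41.5 FPKM in BS at SST. It was at 57.0 and 92.7 FPKM in M and 17.6 and 24.9 FPKM in BS at maturing and at 7.91 and 7.49 FPKM in M and 2.85 and 0.429 FPKM in BS at mature. The cell types overlapped at SST and were apart afterwards, and both fell to their lowest level at mature. Neither change from SST to maturing was called, with a log2 change of 0.89 ± 0.60 (adjusted p = 0.38) in M and -0.96 ± 0.60 (adjusted p = 0.31) in BS. Mature against maturing, its log2 change was -3.33 ± 0.60 (adjusted p = 0.0049) in M and -3.81 ± 0.60 (adjusted p = 0.0025) in BS. The M call remained in 2 and the BS call in 8 of the 12 fits that each left out 1 library.

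The other DAHP synthase gene, GRMZM2G365160, was at 30.9 and 29.8 FPKM in M and 19.5 and 21.0 FPKM in BS at SST, the largest SST ratio among the 74. At maturing it was at 7.90 and 10.6 FPKM in M and 0.0924 and 2.08 FPKM in BS, and at mature at 7.81 and 4.67 FPKM in M and 0.854 and 1.97 FPKM in BS. Every maturing value was below every SST value, and the BS values were the lowest. The log2 change from SST to maturing was -1.46 ± 0.77 (adjusted p = 0.26) in M and -4.38 ± 0.77 (adjusted p = 0.0054) in BS, and the BS call remained in 1 of 12 fits with 1 library left out. Its 2 maturing BS libraries were far apart, and no change from maturing to mature was called.

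A prephenate dehydrogenase family gene, GRMZM2G084942, of the branch to tyrosine, was at 5.29 and 6.15 FPKM in M and 8.73 and 7.77 FPKM in BS at SST. It was at 10.5 and 9.74 FPKM in M and 5.05 and 4.34 FPKM in BS at maturing and at 13.6 and 20.0 FPKM in M and 5.70 and 3.19 FPKM in BS at mature. M was the lower cell type at SST and the higher at both later stages, without overlap at any stage. Its log2 M/BS was -0.53, 1.10 and 1.92 in that order. No stage change passed the threshold, with 1.04 ± 0.29 (adjusted p = 0.042) in M and -0.67 ± 0.29 (adjusted p = 0.15) in BS from SST to maturing.

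The branched chain gene was als1 (GRMZM2G143008), which encodes acetolactate synthase, the enzyme of the first common step and the target of sulfonylurea herbicides. It was at 20.7 and 23.7 FPKM in M and 18.8 and 15.0 FPKM in BS at SST, at 13.6 and 15.5 FPKM in M and 5.07 and 3.72 FPKM in BS at maturing and at 8.38 and 6.30 FPKM in M and 3.69 and 1.66 FPKM in BS at mature. The maturing BS values were well below the SST BS values, and the mature values were the lowest in both cell types. The M change from SST to maturing was -0.35 ± 0.32 (adjusted p = 0.54) and the BS change was -1.78 ± 0.32 (adjusted p = 0.0061), a call that remained in 2 of 12 fits with 1 library left out.

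The lists around these genes, which include the members, were as follows. Those of aromatic and branched chain amino acid synthesis were chosen after the members were seen, so they are description only. Of 31 genes of aromatic amino acid synthesis tested, 3 were among the 74, and from SST to maturing 0 were called higher and 3 lower in M, and 5 higher and 7 lower in BS. From maturing to mature, 2 were called higher and 7 lower in M, and 3 higher and 6 lower in BS. The fitted log2 M/BS of the 31 genes had a median of 0.49 at maturing, from -2.26 to 3.53. At mature the median was 0.29, from -2.69 to 3.10. Genes of this list thus leaned to either cell type, and the list as a whole did not share the M bias of the 3. Of 10 genes of branched chain synthesis, 1 was among the 74. None of the 10 was called higher in these contrasts, and those called lower were 1 in M and 2 in BS (als1 among the BS genes) from SST to maturing, and 4 in M and 0 in BS from maturing to mature. On the whole list of nitrogen, amino acid and sulfur metabolism, 171 genes were tested, with 11 called higher and 22 lower in M and 24 higher and 22 lower in BS from SST to maturing. The median log2 change of that list was -0.10 in M and -0.02 in BS, where the median of all genes tested was 0.

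Nitrate reductase, which reduces nitrate to nitrite, was represented by NAR (GRMZM5G878558). It was at 4.74 and 8.32 FPKM in M and 5.03 and 5.50 FPKM in BS at SST, at 6.32 and 7.49 FPKM in M and 1.03 and 2.23 FPKM in BS at maturing and at 25.6 and 8.32 FPKM in M and 5.30 and 1.20 FPKM in BS at mature. M and BS overlapped at SST, and the BS values were lower than all M values at both later stages. The log2 M/BS was 2.08 at maturing and 2.38 at mature. The 2 mature libraries were far apart in both cell types, and no stage change was called. From SST to maturing the BS change was -1.52 ± 0.70 (adjusted p = 0.19).

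Cell wall genes numbered 3 among the 74, of 145 tested on that list. xet1 (GRMZM2G026980), a xyloglucan endotransglycosylase that cuts and rejoins wall xyloglucan, was at 0.418 and 3.32 FPKM in M and 1.98 and 1.64 FPKM in BS at SST. It was at 41.8 and 38.8 FPKM in M and 12.2 and 12.1 FPKM in BS at maturing and 17.7 and 26.1 FPKM in M and 4.63 and 1.76 FPKM in BS at mature. All maturing values were above all SST values. The M change was 4.93 ± 0.71 (adjusted p = 0.0027), the largest M rise among the 74, and the BS change was 2.69 ± 0.71 (adjusted p = 0.029). The M call remained in 6 of 12 fits with 1 library left out.

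GRMZM2G084812, named rfz1 and annotated as the fasciclin-like arabinogalactan protein FLA1, a cell surface glycoprotein, went the other way. It was at 62.0 and 69.5 FPKM in M and 64.7 and 56.0 FPKM in BS at SST, at 9.98 and 7.60 FPKM in M and 0.376 and 1.47 FPKM in BS at maturing and at 8.06 and 9.95 FPKM in M and 3.55 and 1.69 FPKM in BS at mature. All 4 SST values were above every later value. The M change was -2.63 ± 0.48 (adjusted p = 0.0076), a call that remained in 2 of 12 fits with 1 library left out, and the BS change was -5.73 ± 0.48 (adjusted p = 0.00015), which remained in all 12. The acquired M bias of this gene was thus a smaller fall in M than in BS.

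Bk2L3 (GRMZM5G826714), a COBRA family gene (COBRA acts in the orientation of cellulose microfibrils in Arabidopsis), was at 34.5 and 23.3 FPKM in M and 29.7 and 31.4 FPKM in BS at SST. It was at 9.74 and 5.28 FPKM in M and 2.84 and 2.13 FPKM in BS at maturing and 6.44 and 6.32 FPKM in M and 2.20 and 0.522 FPKM in BS at mature. SST values were again the highest in both cell types. The M change, -1.70 ± 0.50 (adjusted p = 0.052), was not called, while the BS change was -3.39 ± 0.50 (adjusted p = 0.0023) and remained called in 8 of 12 fits with 1 library left out. On the cell wall list as a whole, 8 genes were called higher and 34 lower in M, and 8 higher and 37 lower in BS, from SST to maturing, with median log2 changes of -0.88 and -0.95.

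**Figure D4:**
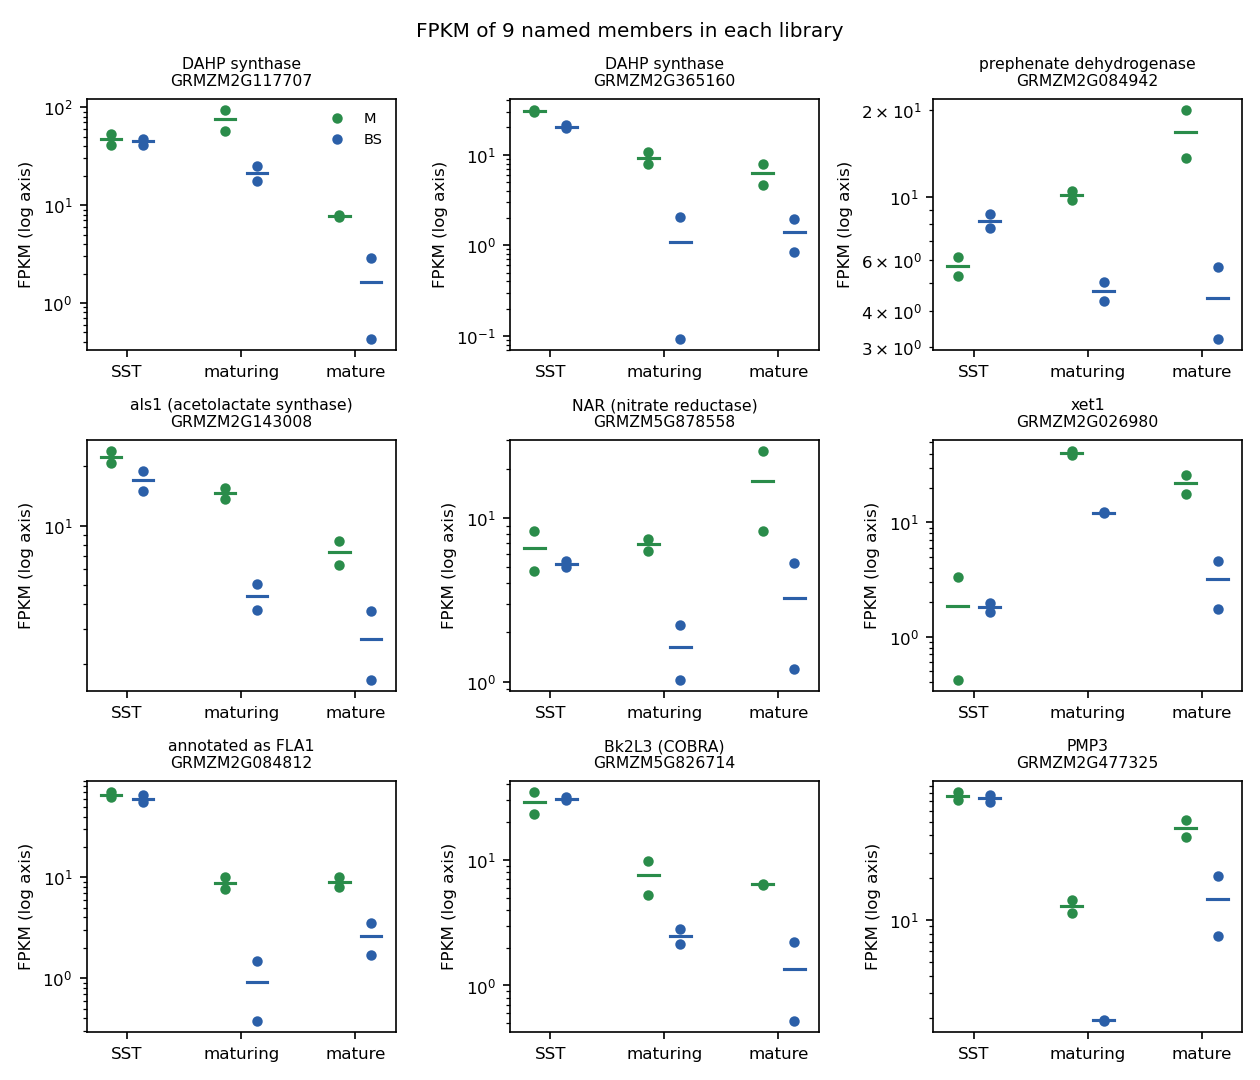
FPKM (log axis) of 9 named genes in each library, with M in green to the left of BS in blue at each stage, and a bar at the mean of the 2 libraries. M and BS lie within 1.5-fold of each other at SST and apart at maturing and mature. The DAHP synthase GRMZM2G117707 is lowest at mature, FLA1 and Bk2L3 are highest at SST, and xet1 is lowest at SST.

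Of the lipid metabolism list, 2 of 181 genes tested were among the 74. GRMZM2G013783, annotated as acyl-activating enzyme AAE7 (in Arabidopsis a peroxisomal enzyme that activates acetate), was at 6.02 and 6.13 FPKM in M and 6.29 and 4.53 FPKM in BS at SST. It was at 32.9 and 27.3 FPKM in M and 7.51 and 10.9 FPKM in BS at maturing and 12.9 and 9.30 FPKM in M and 5.58 and 5.06 FPKM in BS at mature. M peaked at maturing, above all BS values. The M change from SST to maturing was 2.50 ± 0.25 (adjusted p = 0.00062), called in 12 of 12 fits with 1 library left out, against 0.84 ± 0.25 (adjusted p = 0.048) in BS. From maturing to mature the M change was -1.56 ± 0.25 (adjusted p = 0.0028) and the BS change -0.67 ± 0.25 (adjusted p = 0.092). GRMZM2G116876, in the category of phosphoinositide phospholipase C, had no call, with M values of 19.4 and 23.4 FPKM against BS values of 10.2 and 8.11 FPKM at maturing. From SST to maturing, 20 genes of the list were called higher and 10 lower in M, and 26 higher and 12 lower in BS.

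Another 3 named genes were called higher in M at maturing. Opaque10 (GRMZM2G346263), known for its part in protein bodies of the kernel, was at 20.8 and 19.8 FPKM in M and 14.7 and 12.8 FPKM in BS at SST and at 56.4 and 51.6 FPKM in M and 24.8 and 23.5 FPKM in BS at maturing. It was at 33.1 and 38.1 FPKM in M and 15.1 and 15.5 FPKM in BS at mature. Both cell types were higher at maturing, and M was above BS without overlap at each stage. The change was 1.64 ± 0.14 (adjusted p = 0.00034) in M and 0.92 ± 0.14 (adjusted p = 0.0028) in BS, calls that remained in 12 and 10 of 12 fits with 1 library left out.

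GRMZM2G406101, annotated as RHL1 (in Arabidopsis a subunit of the topoisomerase VI complex of endoreduplication), was at 33.7 and 27.3 FPKM in M at maturing, against 9.89 and 13.1 FPKM at SST. The M change was 1.64 ± 0.21 (adjusted p = 0.0017) and the BS change 0.70 ± 0.21 (adjusted p = 0.050). vip3 (GRMZM2G070211), named after an Arabidopsis subunit of the Paf1 transcription complex, was at 8.44 and 8.03 FPKM in M at maturing, against 3.18 and 4.07 FPKM at SST. Its M change of 1.38 ± 0.26 (adjusted p = 0.0093) was called in 2 of 12 fits with 1 library left out. The identifiers of RHL1 and vip3 each belong to 2 RefSeq entries, so that the gene behind the values is uncertain. GRMZM2G480171, annotated as the organelle DNA polymerase POLGAMMA2, had M values of 9.75 and 7.16 FPKM and BS values of 1.83 and 2.96 FPKM at maturing and no call. A VHS and GAT domain gene of vesicle transport, GRMZM2G118363, also had no call, and its maturing M/BS ratio was among the smallest (log2 1.00).

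PMP3 (GRMZM2G477325) encodes a small hydrophobic membrane protein of a family known from salt and cold stress. It was at 81.2 and 71.3 FPKM in M and 78.0 and 68.8 FPKM in BS at SST, at 13.8 and 11.2 FPKM in M and 1.91 and 1.95 FPKM in BS at maturing and at 51.2 and 38.8 FPKM in M and 20.4 and 7.67 FPKM in BS at mature. It was lowest at maturing in both cell types, and the mature values lay between those of maturing and SST. From SST to maturing the change was -2.34 ± 0.37 (adjusted p = 0.0043) in M and -4.96 ± 0.37 (adjusted p = 9.5e-05) in BS. The M call remained in 2 of 12 fits with 1 library left out, and the BS call in all 12. From maturing to mature the change was 1.70 ± 0.37 (adjusted p = 0.012) in M and 2.62 ± 0.37 (adjusted p = 0.0015) in BS, and that BS call remained in 10 of 12.

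The gene named rps4 (GRMZM2G125271), a name used for ribosomal protein S4, had the same order of stages. It was at 81.5 and 75.6 FPKM in M and 100.2 and 93.2 FPKM in BS at SST, at 16.3 and 15.3 FPKM in M and 9.45 and 6.29 FPKM in BS at maturing and at 35.5 and 36.7 FPKM in M and 17.8 and 17.8 FPKM in BS at mature. The M values were below the BS values at SST and above them at both later stages. The changes from SST to maturing were -2.05 ± 0.17 (adjusted p = 0.00031) in M and -3.49 ± 0.17 (adjusted p = 2.1e-05) in BS, and both calls remained in all 12 fits that left out 1 library. From maturing to mature they were 1.06 ± 0.17 (adjusted p = 0.0028) in M and 1.25 ± 0.17 (adjusted p = 0.0012) in BS. IQD1 (GRMZM5G826979), a gene of the calmodulin-binding IQD family, was at 3.37 and 4.05 FPKM in BS at maturing, against 7.99 and 11.0 FPKM at SST, a change of -1.17 ± 0.22 (adjusted p = 0.0072) that remained called in 2 of 12.

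Most of the abundant genes had an identifier only. GRMZM2G486480 had the highest M mean over maturing and mature, with 603 and 1210.2 FPKM in M and 662 and 585 FPKM in BS at SST, 675 and 867 FPKM in M and 302 and 468 FPKM in BS at maturing and 385 and 162 FPKM in M and 44.0 and 0 FPKM in BS at mature. Its libraries differed widely within groups, and no stage change was called. GRMZM2G123234 was at 605 and 496 FPKM in M and 415 and 381 FPKM in BS at SST, 371 and 326 FPKM in M and 139 and 154 FPKM in BS at maturing and 287 and 208 FPKM in M and 134 and 73.8 FPKM in BS at mature. Its SST values were the highest and its mature values the lowest in both cell types, with a BS change from SST to maturing of -1.33 ± 0.26 (adjusted p = 0.0087), called in 2 of 12 fits with 1 library left out.

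GRMZM2G017249 stood out for a rise in both cell types. It was at 22.4 and 26.4 FPKM in M and 21.0 and 22.9 FPKM in BS at SST, at 205 and 231 FPKM in M and 70.1 and 80.7 FPKM in BS at maturing and at 187 and 219 FPKM in M and 95.9 and 80.9 FPKM in BS at mature. Its replicate libraries were close to each other in every group, and the M mean was 2.89 times the BS mean at maturing and 2.29 times at mature. The changes from SST to maturing were 3.39 ± 0.17 (adjusted p = 5.1e-05) in M and 1.88 ± 0.17 (adjusted p = 0.00024) in BS, and both remained called in all 12 fits with 1 library left out.

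Another 3 abundant genes without a name had at most 1 call each. GRMZM2G101027 was at 74.9 and 80.1 FPKM in M and 19.8 and 37.9 FPKM in BS at maturing, against 14.6 and 20.0 FPKM in M and 14.1 and 15.1 FPKM in BS at SST. All maturing M values were above the rest, with a change of 2.41 ± 0.38 (adjusted p = 0.0044) in M, called in 4 of 12 fits with 1 library left out, and 1.01 ± 0.38 (adjusted p = 0.11) in BS. GRMZM5G894582 was highest in M at mature, with 151 and 126 FPKM in M and 51.8 and 27.5 FPKM in BS, and GRMZM2G149145 was at 74.9 and 62.0 FPKM in M and 26.2 and 40.2 FPKM in BS at maturing. No stage change was called for GRMZM5G894582 and GRMZM2G149145, the nearest being the BS change of GRMZM5G894582 from maturing to mature at 1.16 ± 0.27 (adjusted p = 0.016).

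Of the 10 largest M/BS ratios over the later stages, 5 belonged to genes called lower in BS from SST to maturing. That call was made for 24 of the 74 genes and for 5.01% of all genes tested. The maturing BS mean enters both the ratio and the call, so the 2 are not independent. GRMZM2G553970, with a mature BS mean of 0, had no ratio and was not ranked. GRMZM5G857152 was at 475 and 249 FPKM in M and 377 and 260.1 FPKM in BS at SST, 54.5 and 61.1 FPKM in M and 1.09 and 5.32 FPKM in BS at maturing and 43.2 and 20.8 FPKM in M and 5.72 and 0 FPKM in BS at mature. All SST values were above all later ones. Its BS change was -6.72 ± 1.30 (adjusted p = 0.0082), called in 2 of 12 fits with 1 library left out. GRMZM5G878102 was at 1175 and 1187 FPKM in M and 1271 and 1156 FPKM in BS at SST, 492 and 383 FPKM in M and 26.7 and 60.2 FPKM in BS at maturing and 140.1 and 169 FPKM in M and 37.4 and 2.65 FPKM in BS at mature. It had the highest SST level of the 74, and its BS change from SST to maturing was -4.80 ± 0.97 (adjusted p = 0.0098), called in 2 of 12. GRMZM2G375900 changed by -4.23 ± 0.77 (adjusted p = 0.0060) in BS, called in 2 of 12.

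Other genes of that group had low values. GRMZM2G471517 was at 8.07 and 7.23 FPKM in M and 0.746 and 1.72 FPKM in BS at maturing, against 0.243 and 2.89 FPKM in M and 2.66 and 1.68 FPKM in BS at SST. GRMZM5G835064 was at 21.3 and 21.5 FPKM in M and 3.46 and 3.38 FPKM in BS at maturing. GRMZM2G063844 reached its large ratio at mature, with 8.90 and 17.7 FPKM in M and 2.01 and 0.284 FPKM in BS. No stage change was called for these 3. Few reads were behind GRMZM2G171928, GRMZM6G816863 and GRMZM5G807838, with at most 50 estimated reads in any library, among the 27 genes for which reads could be estimated. GRMZM2G171928 had 0 to 13 estimated reads per library. Single groups rested on few reads in other genes too. In mature BS, GRMZM2G063844 had 6 and 1 estimated reads, and GRMZM5G835064 and GRMZM2G375900 each had 5 and 0. The DAHP synthase GRMZM2G365160 had 2 and 46 in maturing BS, and GRMZM2G094941 had 9 and 8 in SST M.

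In 3 further abundant genes without a name, BS was called lower and M was not. GRMZM2G057630 was at 43.5 and 44.8 FPKM in BS at maturing, against 193 and 139 FPKM at SST, a log2 change of -1.77 ± 0.18 (adjusted p = 0.00035). GRMZM2G083716 was at 20.7 and 24.7 FPKM in BS at maturing, against 119 and 106 FPKM at SST, a change of -2.19 ± 0.24 (adjusted p = 0.00056). GRMZM2G011213 was at 14.5 and 20.2 FPKM in BS at maturing, against 73.8 and 75.1 FPKM at SST, a change of -1.99 ± 0.22 (adjusted p = 0.00061). The maturing BS values were below the SST BS values in each of these 3 genes, and the BS calls remained in all 12 fits with 1 library left out. Over the 4 contrasts within a cell type, there were 74 calls in all, of which 24 remained in all 12 fits.

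From maturing to mature, most calls were lower, and most were shared by M and BS. In M, 3 were called higher and 16 lower, where 7.31% of all genes tested were called higher and 6.95% lower. In BS, 5 were called higher and 13 lower, where 7.79% were called higher and 6.57% lower. Of these, 3 genes were called higher in both cell types and 11 lower in both. The median change was -0.64 in M and -0.44 in BS, against -0.15 and 0 for the other genes even at SST. Of those other genes, 6.89% were called higher and 12.0% lower in M, and 8.92% higher and 9.16% lower in BS. The counts of 16 and 13 were 5 to 9 without either maturing or mature M library (M), and 6 to 8 without either SST BS or maturing BS library or the second mature BS library (BS). The M count of 3 was 0 without either maturing M library and 1 without the second mature M library. The BS count of 5 was 1 to 3 without any of the SST BS, maturing or mature libraries. Fitted on the 4 libraries of each contrast alone, no gene was called.

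Large declines after maturing were called in both cell types for 3 genes known by identifier, beside the DAHP synthase GRMZM2G117707. GRMZM2G360021 was at 10.1 and 14.2 FPKM in M and 6.01 and 4.86 FPKM in BS at mature, against 206 and 238 FPKM in M and 77.2 and 70.4 FPKM in BS at maturing. Every mature value was below every maturing value, with a change of -4.31 ± 0.29 (adjusted p = 3.8e-05) in M and -3.64 ± 0.29 (adjusted p = 8.1e-05) in BS. GRMZM2G050118 was at 4.66 and 6.16 FPKM in M and 2.65 and 2.02 FPKM in BS at mature, against 36.1 and 44.6 FPKM in M and 11.7 and 15.2 FPKM in BS at maturing, with -2.97 ± 0.23 (adjusted p = 8.0e-05) in M and -2.34 ± 0.23 (adjusted p = 0.00026) in BS. GRMZM2G127230 was at 10.7 and 14.1 FPKM in M and 5.46 and 4.17 FPKM in BS at mature, against 70.2 and 73.3 FPKM in M and 28.9 and 24.6 FPKM in BS at maturing, with -2.64 ± 0.20 (adjusted p = 6.9e-05) in M and -2.35 ± 0.20 (adjusted p = 0.00012) in BS. These 6 calls remained in all 12 fits with 1 library left out. M was above BS without overlap at the lower level too, which the rule required.

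Others of the abundant genes declined less. GRMZM2G054405 was at 129 and 138 FPKM in M at mature, against 391 and 342 FPKM at maturing, a change of -1.58 ± 0.28 (adjusted p = 0.0044). GRMZM2G575619 was at 60.6 and 56.2 FPKM in M at mature, against 118 and 91.9 FPKM at maturing, a change of -0.96 ± 0.17 (adjusted p = 0.0050). GRMZM5G828312 was at 50.1 and 44.7 FPKM in M at mature, against 112 and 119.6 FPKM at maturing, a change of -1.41 ± 0.17 (adjusted p = 0.00064). BS fell by a similar amount in each, with -1.49, -0.97 and -1.27 in that order, and all 3 BS changes were called. With 1 library left out, the M calls of GRMZM2G054405, GRMZM2G575619 and GRMZM5G828312 remained in 4, 7 and 12 of 12 fits, and their BS calls in 1, 8 and 11. GRMZM2G137498 was at 9.24 and 23.5 FPKM in M and 7.01 and 6.73 FPKM in BS at mature, against 78.3 and 83.0 FPKM in M and 30.4 and 42.1 FPKM in BS at maturing, with changes of -2.56 ± 0.40 (adjusted p = 0.0024) in M and -2.27 ± 0.40 (adjusted p = 0.0043) in BS, called in 10 and 2 of 12 fits.

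The genes called higher at mature in both cell types were rps4 and 2 known by identifier. GRMZM2G005339 was at 18.1 and 33.8 FPKM in M and 9.15 and 10.5 FPKM in BS at mature, against 4.49 and 6.44 FPKM in M and 1.87 and 3.56 FPKM in BS at maturing, with 2.03 ± 0.40 (adjusted p = 0.0071) in M and 1.89 ± 0.40 (adjusted p = 0.0099) in BS. These calls remained in 1 and 0 of 12 fits with 1 library left out. GRMZM2G140758 was at 67.6 and 42.7 FPKM in M and 23.6 and 22.3 FPKM in BS at mature, against 20.3 and 22.6 FPKM in M and 9.04 and 9.43 FPKM in BS at maturing, with 1.19 ± 0.20 (adjusted p = 0.0037) in M and 1.36 ± 0.20 (adjusted p = 0.0020) in BS, and remained called in 10 and 8 of 12. GRMZM6G816863 was at 69.8 and 77.7 FPKM in M and 34.9 and 24.7 FPKM in BS at mature, against 8.85 and 3.68 FPKM in M and 0.738 and 1.44 FPKM in BS at maturing, and its BS change of 4.58 ± 0.94 (adjusted p = 0.0086) rests on few reads and remained called in 2 of 12. GRMZM2G553970 was listed at 0 in both mature BS libraries, against 8.55 and 60.5 FPKM in BS at maturing and 8.02 and 15.2 FPKM in M at mature. Its BS change from maturing to mature was called lower (adjusted p = 0.0010), a call that remained in 10 of 12, and no fold is given because the fitted size depends on the pseudocount. Its M change was -2.89 ± 0.85 (adjusted p = 0.041).

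The rule limited the change of the log2 M/BS from maturing to mature, since it required M at least 2 times BS at both stages. Genes whose bias was lost or reversed at mature were thus left out. None of the 74 genes was called higher or lower with limma, and 2 and 2 had an unadjusted p below 0.05. Of all genes tested, 0.578% were called higher and 0.356% lower. At these shares few or no calls would be expected among 74 genes, so the absence of calls does not show a stable bias. The counts were also 0 under every alternative scaling, pseudocount, filter and model of the spread. Without the first mature BS library, 2 genes were called higher, GRMZM2G135359 with a log2 change of 2.21 (adjusted p = 0.0022) and GRMZM2G486480 with 8.78 (adjusted p = 0.0020). The remaining mature BS value of GRMZM2G486480 is 0, so that its change depends on the pseudocount and is no measure of size.

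The 2 mature BS libraries differed in these genes. In the deposited values the second library was below the first for 59 of the 74, and after scaling for 56 (75.7%), against 41.4% of the other genes even at SST. The median absolute difference between the 2 libraries was 0.63 on the log2 scale, against 0.34 in the other even genes. The second library was listed at 0 for 7 of the genes and the first for 1. M markers were also lower in the second mature BS library, with a summed FPKM of 21980 in the first and 14160 in the second. The summed markers of the epidermis were lower in it too, with 7.61 and 2.88. BS markers went the other way, with 20820 in the first and 30270 in the second. The maturing BS libraries differed by a median of 0.43 in the 74 genes, against 0.28 in the other even genes, with the second library lower for 36.5% of them. The part of these differences between captures in the M/BS ratios was not tested. Without the first mature BS library the rule chose 101 genes, 73 of them among the 74, and without the second it chose 69, of which 57 were among the 74.

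**Figure D5:**
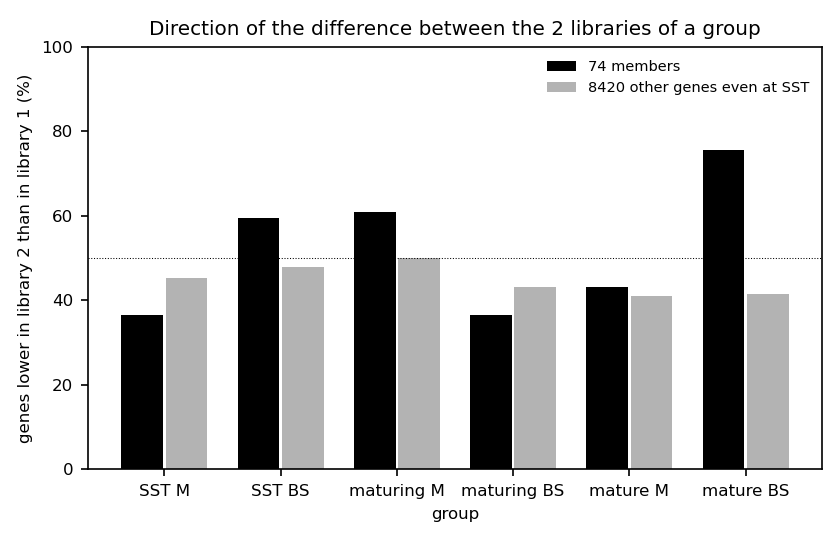
Share of genes (%) that were lower in the second than in the first library of each group, after upper quartile scaling, for the 74 genes (black) and the 8420 other genes even at SST (grey). The black bar of mature BS is the highest, at 75.7% against 41.4%, while in mature M the bars are at 43.2% and 41.1%.

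Of the 16 functional lists, 13 held none of the 74 genes. Of these 13, the lists of hormone metabolism and response (172 genes tested) and of kinases and phosphatases (107) were the longest, while the lists of the light reactions and of tetrapyrrole and chlorophyll metabolism had 1 and 0 genes tested, so that nothing can be read from them. These lists were matched to gene names and to the partial annotation, which covered 12 of the 74 genes, so that the counts do not describe genes known by identifier only. They also miss genes known by a short name alone, since NAR, rps4 and PMP3 were on none of the lists.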

How the data were processed

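The FPKM values of 12 libraries were used as the authors deposited them, for each gene model and library. Per the labels, the submitters' processing notes list CASAVA 1.3, TopHat2 2.0.10, Cuffdiff 2.1.1 and B73 RefGen_v3, whereas the paper describes RefGen_v2 gene models. Captured RNA was amplified by 1 round, selected for poly(A) and sequenced. No read counts were used, and depth and reads were estimated from the steps of low values.

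The 74 genes were chosen on the values as deposited. For the tests the libraries were brought to the same upper quartile, 2.56 FPKM over genes above 0 in any library, and a pseudocount of 0.256, the quartile divided by 10, was added before taking log2, so that changes of genes near it are understated. The tests covered 32548 genes, those whose mean reached 0.256 in 1 group or more. limma 3.58.1 in R 4.3.3 fitted the 6 group means with a trended spread (6 residual and 2.12 prior degrees of freedom), with Benjamini-Hochberg adjustment over all genes tested and calls at an adjusted p below 0.01. A library left out alone leaves its group with 1 library, assumed to vary like the others. M against BS within a stage, which the rule used, is given without a test. Tables were made and figures drawn with Python 3.11.15, pandas 2.3.3 and matplotlib 3.10.9, and the fit was tested on simulated data.

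The members, lists and tests were chosen with earlier results of these data known. Named genes were the 20 with the highest M mean over maturing and mature, the 10 with the largest M/BS ratio, the 3 with the largest called change in each direction and contrast, and members of lists holding at least 3. Other genes with a name were added after their values were seen. The lists of aromatic and branched chain amino acid synthesis, beside the 16 lists, were added after the members were seen. The 16 lists and the markers of other cells were matched to gene names in the RefSeq table (Zm-B73-REFERENCE-NAM-5.0) and to the annotation of 1465 genes of the study's list, which is partial. The replicate numbers were checked for pairing, and did not pair the libraries. Alternatives were other scalings, pseudocounts, filters and fits, and leaving out each library.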

Additional observations from a re-analysis of the deposited data

How the results depend on the processing

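The number of genes chosen was 90 with upper quartile scaling (65 shared with the 74), 76 with median of ratios scaling (69 shared), and 63 to 101 with 1 library left out. No call of a named gene reversed its direction under any alternative. With each contrast fitted on its own 4 libraries, 2 of 34 calls of named genes remained, and the counts from SST to maturing were 0 higher and 1 lower in M and 0 higher and 2 lower in BS, and 0 in each from maturing to mature. Without a trend of the spread, 22 of the 34 remained, BS calls were 1 higher from SST to maturing and 3 higher from maturing to mature, and M calls were 0 higher from maturing to mature. BS calls higher from maturing to mature were also 3 with a pseudocount of a hundredth of the quartile and 3 with no filter. The counts under the other alternatives were within 1.5 times.

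Leaving out 1 library at a time gave, from SST to maturing, 3 to 8 calls higher and 1 to 3 lower in M, and 1 to 3 higher and 11 to 25 lower in BS. From maturing to mature it gave 0 to 4 higher and 5 to 19 lower in M, and 1 to 4 higher and 6 to 14 lower in BS. For the change of the M/BS ratio it gave 0 to 2 higher and 0 lower. The cause of these differences was not tested.

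The replicate numbers did not pair the libraries, since the correlations of same-numbered deviations were between -0.042 and 0.023. A fit with a replicate block called 7 genes higher and 2 lower in M and 2 higher and 20 lower in BS from SST to maturing, and 4 higher and 14 lower in M and 4 higher and 11 lower in BS from maturing to mature. Adjusting p-values over the genes even at SST alone, an alternative chosen after seeing the data, gave 11 genes higher in M from SST to maturing and 24 lower in BS. Depth limits genes with few reads, 3 of which had at most 50 estimated reads in every library.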
